A study of Rattus norvegicus with 6 samples.

Results

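Expression of 10 genes of the transforming growth factor beta (TGF-β) and activin system was examined in L5 dorsal root ganglia (DRG) of rats with a cut spinal nerve. The genes were taken by name and encode the ligands (Tgfb1, Tgfb2, Tgfb3), their receptors (Tgfbr1, Tgfbr2, Tgfbr3), the activin subunits (Inhba, Inhbb) and the follistatins (Fst, Fstl1). A gene was read from the transcript cluster (the exon probesets of a gene on the array, combined into 1 value) that was annotated to its symbol alone. This gave values for 9 of the 10 genes, out of 13215 genes read in the same way, with 1 cluster each. Tgfbr2 had no cluster annotated to it and was not analysed here. The spinal nerve transection (SNT) group consisted of male Wistar rats whose L5 ganglion was removed 7 days after the L5 spinal nerve was cut. The naive group consisted of male Wistar rats without surgery, so that effects of the operation and of the nerve cut cannot be told apart. Each of the 3 SNT and 3 naive arrays carried RNA pooled from the ganglia of 4 animals, 12 animals per group. The ganglion holds immune cells, vessels, fibroblasts and glia beside the sensory neurons, and in such bulk tissue fewer cells of a type and less RNA per cell cannot be told apart.

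TGF-β ligands are secreted in a latent complex that is tethered to the matrix by latent TGF-β binding proteins and released by integrins or proteases. The free ligand binds the type II receptor Tgfbr2, which recruits and activates the type I receptor kinase Tgfbr1, also called ALK5. The kinase then phosphorylates the transcription factors SMAD2 and SMAD3. Activins are dimers of inhibin beta subunits that use their own receptors but the same SMADs, and follistatin captures activins outside the cell. In injured nerve the system is known from macrophages, Schwann cells and fibroblasts, where TGF-β restrains inflammation and drives matrix formation.

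Values are normalised probe intensities on a log2 scale, so that a difference of 1 is a 2-fold change, and fold changes are given as SNT minus naive ± standard error. The array held 19418 clusters, and a cluster was called when its adjusted p in the limma model lay under a false discovery rate (FDR) of 0.1. The injury marker Atf3 stood at 11.4, 11.5 and 11.6 on the SNT arrays, against 7.74, 7.69 and 7.74 on the naive arrays. The array of SNT replicate 1 correlated less with the other SNT arrays (r = 0.982) than those did with each other (r = 0.9896), while naive arrays correlated at r = 0.9945 to 0.9955. Neuronal and glial markers were bright in both groups, for example Tubb3 (neuronal tubulin, 12.57 in SNT and 12.53 in naive) and Pmp22 (myelin protein, 13.31 in SNT and 13.45 in naive). Both were among the least changed markers of their lists. Of 8 measured sensory neuron markers 6 fell, and of 9 glial markers 3 rose and 3 fell, as given below. Of all clusters 32.1% were called, 17.3% higher and 14.8% lower in SNT. In a fit of only the 13215 genes, with 1 cluster each, 5585 were called, 2984 higher and 2601 lower. The share called was thus larger among genes with a symbol than over all clusters, which is the share given below. After median centring of the arrays 1869 clusters were called higher and 3403 lower, against 3367 and 2865 as deposited.

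Of the 9 measured genes 8 were called, beside 32.1% of all clusters: 5 rose (Tgfb1, Tgfbr1, Tgfbr3, Inhba and Fst), 3 fell (Tgfb2, Tgfb3 and Fstl1) and Inhbb was not called. In the same 8 genes every SNT value lay beyond the same end of the naive range, a separation that held for 44.5% of all clusters. The median change of the 9 genes was 0.64 and their median absolute change 0.67, beside a median change of 0.09 and a median absolute change of 0.20 over all clusters. Only Tgfb1 and Tgfbr1 among the 9 changed by 2-fold or more. Without SNT replicate 1 the calls again numbered 8, with 5 rises and 3 falls. Without naive replicate 2 there were 5 rises and 1 fall, that of Fstl1.

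**Figure D1:**
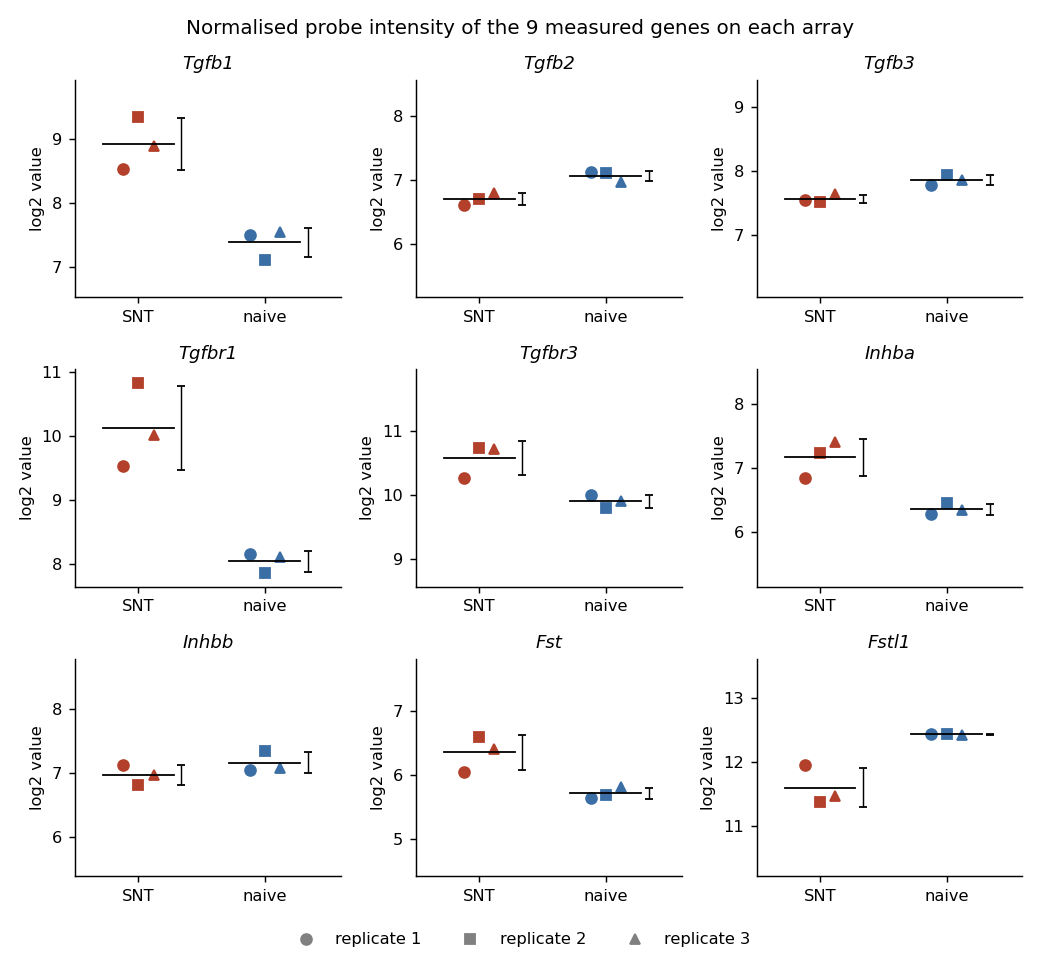
Normalised probe intensity (log2 value, vertical axis) of each of the 9 measured genes in SNT and naive ganglia. Points are arrays, with the shape giving the replicate number, black bars are group means, error bars are SD over 3 arrays and every panel spans the same log2 range. Points of the groups are separate in every panel except that of Inhbb.

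Among the ligands, Tgfb1 rose while Tgfb2 and Tgfb3 fell. Tgfb1, the isoform best known from immune cells and injured tissue, stood at 8.54, 9.34 and 8.90 on the SNT arrays, against 7.50, 7.12 and 7.55 on the naive arrays. The lowest SNT array was about 1 log2 unit above the highest naive array. This was a 2.91-fold rise (log2 fold change 1.54 ± 0.22, adjusted p = 0.00664), larger in size than that of 98.1% of all genes. Tgfb2, which has its main textbook roles in development and in neurons and glia, stood at 6.62, 6.71 and 6.80 in SNT, against 7.13, 7.11 and 6.98 in naive. The groups did not overlap, but the gap between them was small (-0.36 ± 0.09, 0.778-fold, adjusted p = 0.0262). Leaving out naive replicate 1 ended the call of Tgfb2 at an adjusted p of 0.112, and leaving out naive replicate 2 ended it at 0.101. Tgfb3, the isoform known from palate development and scar-poor healing, stood at 7.54, 7.51 and 7.63 in SNT, against 7.77, 7.94 and 7.85 in naive (-0.30 ± 0.08, 0.814-fold, adjusted p = 0.0427). Its values also kept apart, by less than 0.2 log2 units at the closest pair of arrays. The call of Tgfb3 ended when naive replicate 2 was left out, at an adjusted p of 0.152, and likewise at 0.126 without the naive replicate 3 array and at 0.101 without SNT replicate 2.

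The receptors measured both rose, Tgfbr1 most of all 9 genes. Tgfbr1, the kinase that passes the TGF-β signal into the cell, stood at 9.53, 10.83 and 10.02 in SNT, against 8.16, 7.86 and 8.11 in naive. SNT replicate 2 was the highest and SNT replicate 1 the lowest of the SNT arrays, the order also seen for Tgfb1, and all 3 lay above every naive array. The rise was 4.24-fold (2.08 ± 0.31, adjusted p = 0.00724), larger in size than that of 99.3% of all genes. Tgfbr3, or betaglycan, is a co-receptor without kinase activity that presents TGF-β, TGF-β2 in particular, and binds inhibin. It stood at 10.27, 10.73 and 10.72 in SNT, against 9.997, 9.80 and 9.91 in naive. The rise of Tgfbr3 was 1.59-fold (0.67 ± 0.14, adjusted p = 0.0179), and SNT replicate 1 came closest to the naive arrays. In the fit without that array the changes were 2.38 for Tgfbr1 and 0.82 for Tgfbr3.

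Inhba, the subunit of activin A, rose together with its antagonist Fst. Inhba stood at 6.86, 7.25 and 7.42 in SNT, against 6.28, 6.45 and 6.34 in naive (0.81 ± 0.15, 1.76-fold, adjusted p = 0.0123). Fst, which encodes follistatin, stood at 6.05, 6.60 and 6.42 in SNT, against 5.64, 5.69 and 5.82 in naive (0.64 ± 0.15, 1.56-fold, adjusted p = 0.0234). For both genes SNT replicate 1 was the SNT array nearest to the naive arrays, and the groups did not overlap. Inhbb, the subunit of activin B, stood at 7.13, 6.82 and 6.97 in SNT, against 7.06, 7.35 and 7.09 in naive. These values overlapped, with SNT replicate 1 above naive replicates 1 and 3. The difference was -0.19 ± 0.12 (adjusted p = 0.288), with a 95% interval of -0.48 to 0.09.

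Fstl1 had the largest fall. Its product is a secreted glycoprotein with a follistatin-like domain, known in rat sensory neurons as an activator of the sodium pump that restrains transmitter release. It stood at 11.95, 11.38 and 11.47 in SNT, against 12.44, 12.44 and 12.42 in naive. The naive arrays lay within an SD of 0.01 and each SNT array lay below them, SNT replicate 1 by the least. The fall was 0.561-fold (-0.83 ± 0.15, adjusted p = 0.0118).

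**Figure D2:**
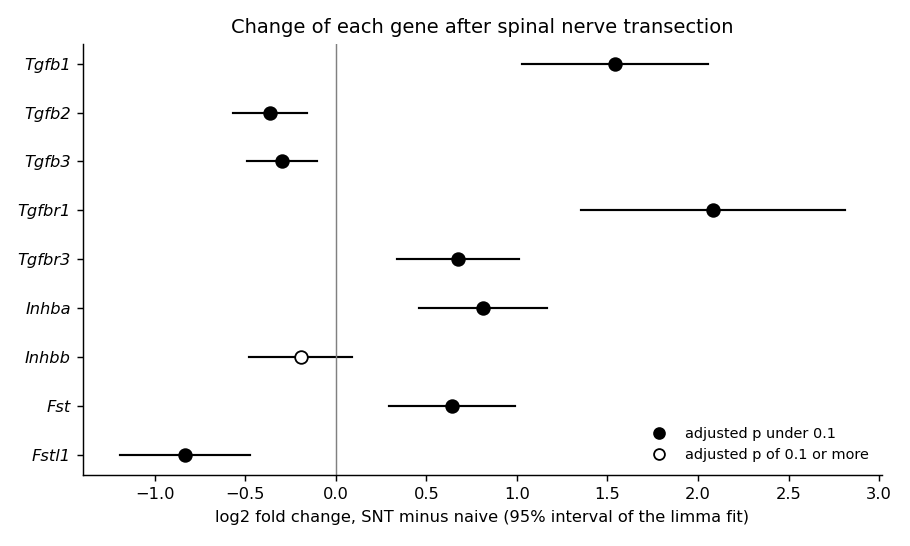
Log2 fold change of SNT minus naive (horizontal axis) for each measured gene, with the 95% interval of the limma fit as a line. Filled circles passed an adjusted p of 0.1, and the open circle of Inhbb at -0.19 did not. Tgfbr1 lies farthest to the right at 2.08 and Fstl1 farthest to the left at -0.83.

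Whether genes of the same role, or Fst and an activin subunit, changed unequally was asked within each array. The log2 value of a gene was subtracted from that of the other in the pair, and these differences were compared between groups. Of 10 such pairs fixed for the comparison, 8 could be formed. In 6 of them the SNT and naive differences did not overlap, and each of these had the smallest p that an exact two-sided permutation test of 3 against 3 arrays can give (p = 0.1, adjusted p = 0.133 over the 8 pairs), so none could pass a threshold of 0.05. Tgfb1 minus Tgfb2 was 1.92, 2.63 and 2.10 in SNT, against 0.37, 0.01 and 0.57 in naive. Tgfb1 gained 1.90 log2 units on Tgfb2 and 1.84 on Tgfb3. Tgfb2 minus Tgfb3 shifted by -0.07, with overlapping values (exact permutation p = 0.5). Tgfbr1 gained 1.41 on Tgfbr3, Inhba gained 1.01 on Inhbb and Fst gained 0.83 on Inhbb. Fst minus Inhba was -0.80, -0.65 and -0.999 in SNT, against -0.64, -0.76 and -0.53 in naive, a shift of -0.17 with overlapping values (exact permutation p = 0.2). Fstl1 minus Fst shifted by -1.48.

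For the genes with the largest rises and the largest fall, the sequence before the transcription start is shown, since this is where the core promoter lies. RefSeq (GRCr8) places these stretches at chr1:90324062-90324311 (plus strand) for Tgfb1, chr5:66449148-66449347 (plus strand) for Tgfbr1 and chr11:76454054-76454303 (minus strand) for Fstl1. They run 5′ to 3′ along the gene's own strand and leave out any base within the annotated gene. Capitals mark matches on either strand to the CCAAT box (CCAAT) and the GC box (GGGCGG).
Tgfb1: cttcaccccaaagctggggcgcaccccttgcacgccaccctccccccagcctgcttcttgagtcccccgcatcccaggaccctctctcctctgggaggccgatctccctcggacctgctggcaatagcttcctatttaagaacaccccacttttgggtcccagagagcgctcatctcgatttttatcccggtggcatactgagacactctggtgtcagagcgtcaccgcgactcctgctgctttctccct
Tgfbr1: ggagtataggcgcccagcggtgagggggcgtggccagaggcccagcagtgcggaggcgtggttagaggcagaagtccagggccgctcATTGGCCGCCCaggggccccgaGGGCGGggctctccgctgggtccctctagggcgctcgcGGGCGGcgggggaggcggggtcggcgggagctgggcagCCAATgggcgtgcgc
Fstl1: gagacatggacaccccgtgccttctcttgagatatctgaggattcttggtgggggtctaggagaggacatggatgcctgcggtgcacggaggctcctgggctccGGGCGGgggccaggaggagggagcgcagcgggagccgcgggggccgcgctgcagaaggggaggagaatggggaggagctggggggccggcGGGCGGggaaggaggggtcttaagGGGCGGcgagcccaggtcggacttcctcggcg
The Tgfbr1 stretch held 2 CCAAT boxes and 3 GC boxes, and a CCAAT box and a GC box lay side by side in its longest run of capitals. The Fstl1 stretch held 3 GC boxes, and the Tgfb1 stretch held neither motif. A CCAAT box was found in 34% and a GC box in 30.5% of the 250-base windows before all 33469 annotated starts. An AP-1 site (TGACTCA, in 4.05% of all windows) and the SMAD-binding palindrome (GTCTAGAC, in 0.173%) were searched on both strands as well. Neither was found in the windows of the 9 genes in the table, which included Tgfbr2 but not Fst. For Tgfb2, Tgfb3, Tgfbr2 and Inhba the whole window lay within the annotated gene, so it was not sequence before the gene. A match or its absence in so short a window is a description of letters only.

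Genes that store and free TGF-β mostly rose. Of 13 measured genes for latency, activation and co-receptors 10 rose and 1 fell, with a median change of 0.61, beside 17.3% higher, 14.8% lower and a median of 0.09 over all clusters. Fbn1, the microfibril protein to which latent complexes attach, was among them (10.05 in SNT and 8.75 in naive, 1.30 ± 0.20, adjusted p = 0.00796). So was the integrin subunit Itgb8, which binds latent TGF-β (10.8 in SNT and 9.72 in naive, 1.11 ± 0.17, adjusted p = 0.00772). Ltbp4, a latent TGF-β binding protein (0.65 ± 0.09, adjusted p = 0.00708), and Furin, the protease that cleaves the TGF-β precursor (0.61 ± 0.11, adjusted p = 0.0107), rose as well. Itgb6, another TGF-β activating integrin subunit and a gene of epithelia, fell (5.36 in SNT and 6.00 in naive, -0.64 ± 0.11, adjusted p = 0.0112). In this list Lrrc32, Thbs1, Itgav and Eng had no cluster of their own symbol alone.

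Among 12 measured genes for activin and inhibin ligands, receptors and antagonists there were 6 rises and 1 fall (median 0.16). Over all clusters 17.3% were higher and 14.8% lower, with a median of 0.09, so the single fall is no more than the share over all clusters. Bambi, a pseudoreceptor that dampens TGF-β family signalling, rose most (8.23 in SNT and 7.397 in naive, 0.83 ± 0.12, adjusted p = 0.00732). The type I receptor Acvr1 (0.59 ± 0.09, adjusted p = 0.00856) and Fstl3, a relative of follistatin that also binds activin (0.44 ± 0.09, adjusted p = 0.0145), rose. Acvr1b, the main type I receptor of activin, also called ALK4, fell (8.17 in SNT and 8.66 in naive, -0.49 ± 0.08, adjusted p = 0.00872). Those that fell numbered 3 after median centring or with array weights, and 2 after cyclic loess, after quantile normalisation or without SNT replicate 1. Rises numbered 4 after median centring, cyclic loess or quantile normalisation, with the replicate block, and without each naive array in turn. Acvr1c (adjusted p = 0.0725 in the main fit) and Igsf1 (0.0981) lost their calls each time. The list median was 0.03 after cyclic loess and 0.02 after quantile normalisation. Inha, the inhibin alpha subunit, did not pass (-0.07 ± 0.11, adjusted p = 0.702), and the type II receptors Acvr2a and Acvr2b were not analysed here.

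Downstream, 3 of 8 measured SMADs and SMAD regulators rose and 1 fell (median 0.22), where 17.3% of all clusters rose and 14.8% fell, and the 1 fall is near that share. Smad3, the receptor-regulated SMAD that binds DNA directly (7.22 in SNT and 6.48 in naive, 0.74 ± 0.13, adjusted p = 0.0102), and the shared partner Smad4 (0.52 ± 0.10, adjusted p = 0.0147) rose, as did Tgif1, a corepressor of SMAD complexes (0.86 ± 0.19, adjusted p = 0.0198). Zfyve9, which encodes the receptor-anchoring protein SARA, fell (-0.61 ± 0.08, adjusted p = 0.00547). Smad2 stood at 9.30 in SNT and 9.31 in naive, and the inhibitory Smad7, itself a TGF-β target, differed by 0.15 ± 0.12 (adjusted p = 0.386). Of 11 measured textbook response genes 9 rose and 0 fell, with a median of 0.65, beside 17.3% higher, 14.8% lower and a median of 0.09 over all clusters. The collagen-associated Cthrc1 (9.33 in SNT and 6.40 in naive, 2.93 ± 0.29, adjusted p = 0.00365), the cell cycle inhibitor Cdkn1a (2.45 ± 0.14, adjusted p = 0.000826), the matrix protein periostin, Postn (2.43 ± 0.35, adjusted p = 0.007), and fibronectin, Fn1 (1.85 ± 0.25, adjusted p = 0.00643), had the smallest adjusted p. Ccn2 (0.22 ± 0.11, adjusted p = 0.198) and Tagln (0.08 ± 0.15, adjusted p = 0.706) did not pass. Genes of this list are known to answer to other stimuli too.

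In the wider family with follistatin domains falls outnumbered rises. There were 6 falls and 2 rises among 12 measured genes (median -0.32). Of all clusters 14.8% fell and 17.3% rose, so the share of rises in the family was close to that over all clusters. Fstl5 (5.74 in SNT and 7.03 in naive, -1.29 ± 0.14, adjusted p = 0.00428) and Sparcl1, a matricellular protein of astrocytes and vessels (-0.48 ± 0.07, adjusted p = 0.00768), fell. The heparan sulphate proteoglycan agrin, Agrn (0.73 ± 0.10, adjusted p = 0.0059), and Smoc2 (0.88 ± 0.13, adjusted p = 0.00703) rose.

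**Figure D3:**
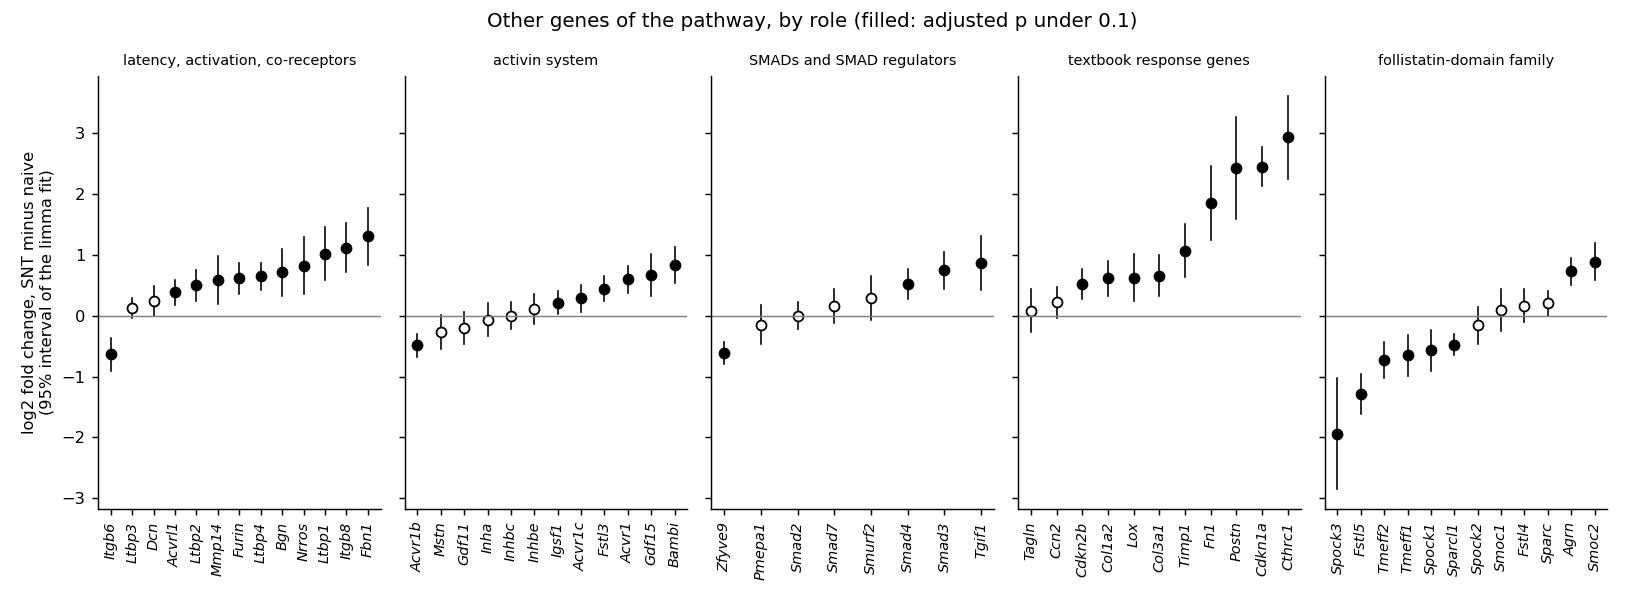
Log2 fold change of SNT minus naive (vertical axis) for the other genes of the pathway, 1 panel per list, each point a gene with the 95% interval of the limma fit. Filled points passed an adjusted p of 0.1. Points in the latency and response panels lie mainly above 0, up to 1.30 for Fbn1 and 2.93 for Cthrc1, and the called points of the follistatin-domain panel lie mainly below 0, down to -1.94 for Spock3.

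Markers of cell types moved along with these genes, and their counts stand beside 17.3% higher and 14.8% lower over all clusters. All 12 measured macrophage markers rose (median 2.08), among them Gpnmb (3.84), C1qa (2.31), C1qb (2.46) and Aif1 (1.00). The log2 of their summed level ranged from 12.74 to 13.72 in SNT and from 10.75 to 11.17 in naive. Their median difference from the naive mean was 1.40, 2.34 and 2.32 on SNT replicates 1 to 3. On the same arrays the difference was 1.49, 2.79 and 1.98 for Tgfbr1 and 1.15, 1.96 and 1.51 for Tgfb1, all lowest on SNT replicate 1 and highest on SNT replicate 2. This order was not particular to macrophage markers. Medians of the latency genes (0.44, 0.79 and 0.71), the SMAD list (0.08, 0.42 and 0.22) and the endothelial and mural markers (-0.03, 0.35 and 0.29) had it too. The medians of fibroblast markers and response genes were highest on SNT replicate 3, and that of T and natural killer cell markers was lowest there. By the log2 of the summed level, however, response genes (13.40, 13.99 and 13.93) had the order of Tgfb1. So did T and natural killer cell markers (9.61, 10.12 and 9.81). Of 6 T and natural killer cell markers 5 rose and 0 fell (median 0.66), with Gzmb (4.06), Cd8a (2.62), Cd5 (0.78) and Cd2 (0.55) at the smallest adjusted p and a summed level of 9.61 to 10.12 in SNT and 7.79 to 7.89 in naive. Cd3d, a subunit of the T cell receptor complex, did not pass (0.39, adjusted p = 0.109), and Prf1 passed narrowly (0.30, adjusted p = 0.0985). The rises numbered 4 after median centring, cyclic loess or quantile normalisation and with the variance trend. They also numbered 4 without each naive array in turn and without SNT replicate 2 or 3, and 6 with array weights. The part of these cells in the changes above was not tested.

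Fibroblast markers moved less: 3 of 7 rose and 0 fell (median 0.24), and the summed levels of 13.645 to 13.93 in SNT and 13.32 to 13.65 in naive met at their edges. The collagens Col1a2 (0.62) and Col3a1 (0.65), which are also response genes above, and Lum (0.64, adjusted p = 0.0807) passed, while Dcn differed by 0.24 (adjusted p = 0.145). The groups overlapped for Lum, and its call ended after median centring (adjusted p = 0.166) and when naive replicate 1 (0.166), naive replicate 2 (0.216), SNT replicate 2 (0.187) or SNT replicate 3 (0.18) was left out. Of 9 markers of Schwann cells and satellite glia 3 rose and 3 fell (median -0.14, beside 17.3% higher and 14.8% lower over all clusters), and the summed levels of 14.69 to 14.80 in SNT and 14.70 to 14.86 in naive overlapped. Gfap (1.93) and Sox10 (0.66) rose, and Fabp7 (-1.25) and S100b (-0.33) fell. The falls numbered 1 after cyclic loess, with the replicate block, or without naive replicate 1 or 3, S100b being among those lost each time. The rises numbered 2 after median centring, with the replicate block, without each naive array in turn, and without SNT replicate 2 or 3. Apoe (adjusted p = 0.0985 in the main fit) lost its call each time. Of 5 endothelial and mural cell markers 2 rose, Pdgfrb (0.62) and Cldn5 (0.32), while Tek (0.23) and Myh11 (-0.16) did not pass. Their summed level was 11.14 to 11.43 in SNT and 10.88 to 11.11 in naive. No endothelial or mural marker rose (0 of 5) when naive replicate 2 was left out, and 1 rose without SNT replicate 2, without either of the other naive arrays, after median centring, with array weights or with the replicate block. Of 8 sensory neuron markers 6 fell and 0 rose (median -1.01), with a summed level of 14.14 to 14.64 in SNT and 14.95 to 15.03 in naive. Nefh (-1.33), Isl1 (-1.62), Snap25 (-0.69) and P2rx3 (-0.64) had the smallest adjusted p. The difference of Fstl1 from its naive mean was -0.49, -1.05 and -0.97 on SNT replicates 1 to 3. For the median of the sensory neuron markers it was -0.49, -1.36 and -1.07. A fall smallest on SNT replicate 1 and largest on SNT replicate 2 was not particular to neuron markers. The median of the follistatin-domain family (-0.14, -0.46 and -0.24) had that order too, while that of the glial markers (-0.08, -0.23 and -0.02) did not. The part of neurons and glia in the changes was not tested.

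**Figure D4:**
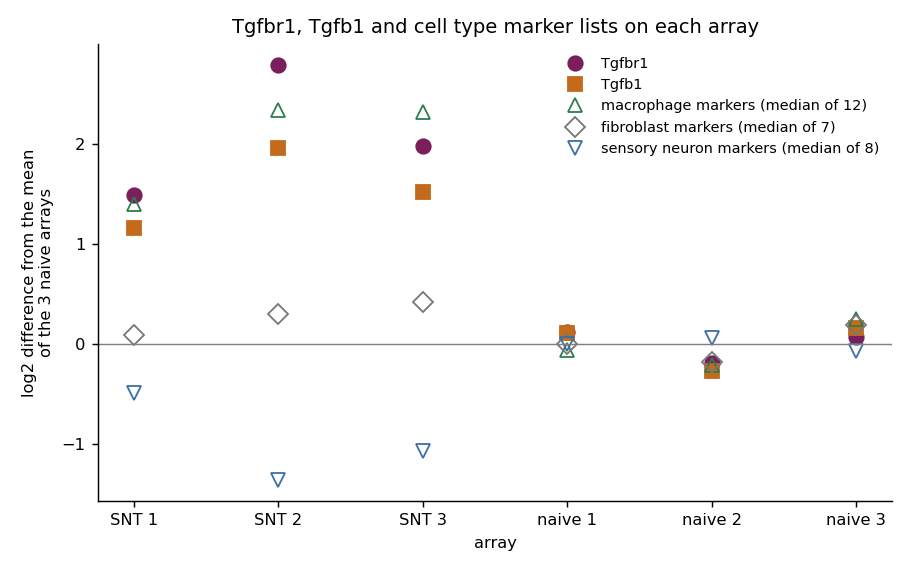
Log2 difference from the mean of the 3 naive arrays (vertical axis) on each array, for Tgfbr1 and Tgfb1 (filled) and for the median of 3 marker lists (open). On the SNT arrays Tgfbr1, Tgfb1 and macrophage markers lie between 1.15 and 2.79, fibroblast markers between 0.09 and 0.42 and sensory neuron markers between -1.36 and -0.49.

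The genes whose profile over the 6 arrays came closest to Tgfbr1 and Tgfb1 were sought among all 13215 genes, by the root mean square (RMS) difference of log2 values after each gene was centred on its own mean. Closest to Tgfbr1 were the folate receptor Folr2 (RMS difference 0.12, log2 fold change 1.91), the leukocyte integrin subunit Itgb2 (0.16, 1.78) and the lysosomal protease cathepsin S, Ctss (0.16, 1.97). Folr2 stood at 8.12, 9.50 and 8.58 in SNT, against 6.77, 6.70 and 6.99 in naive. Closest to Tgfb1 were the insulin-like growth factor binding protein Igfbp3 (0.03, 1.53), the platelet-activating factor receptor Ptafr (0.06, 1.62) and the macrophage growth factor receptor Csf1r (0.09, 1.40). Igfbp3 stood at 8.46, 9.25 and 8.91 in SNT, against 7.45, 7.09 and 7.50 in naive. All 6 of these genes share with Tgfbr1 and Tgfb1 the lowest SNT value on replicate 1 and the highest on replicate 2. They were picked for nearness on these same arrays, so the shared order is largely a product of that choice. Since the groups separate in 44.5% of all clusters, this likeness is a description over 6 points.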

How the data were processed

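Poly(A) RNA of L5 DRG was hybridised to Affymetrix Rat Exon 1.0 ST arrays, 3 SNT and 3 naive. The deposited values are log2 intensities of transcript clusters that the authors made in R with oligo by robust multi-array average (RMA: background correction, quantile normalisation, median polish), which tends to compress large differences. Tool versions: not given in the sources used here. Symbols came from the platform annotation: 13327 of 19418 clusters had 1 symbol, and where several clusters shared a symbol the one with the highest mean over 6 arrays was used. Levels of different genes are not comparable on this scale.

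SNT and naive were compared with limma 3.58.1 (R 4.3.3), by two-sided tests adjusted after Benjamini and Hochberg for all 19418 clusters, at an FDR of 0.1. The procedure was checked on simulated data. Alternatives were median centring, cyclic loess, repeated quantile normalisation, a filter on dim clusters (lowest 25% removed), 1 cluster per gene, a variance trend, array weights, the replicate number as a block, FDR 0.05 and leaving out each array. Named were the 10 genes, per list the 4 genes of smallest adjusted p and at most 2 called against the median of their list, the 3 profiles nearest to Tgfbr1 and Tgfb1, and injury check genes, of which the text gives Atf3. Other genes, such as Smad2, Smad7, Inha, Ccn2, Tagln, Cd3d, Tubb3, Pmp22 and Spock3, and the promoter motifs were chosen after their values were seen. The genes and lists were chosen with earlier results of these data known. The number of arrays limits the precision.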

Additional observations from a re-analysis of the deposited data

How the results depend on the processing

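The directions of the 9 genes were the same under the 15 alternatives. Calls of Tgfb1, Tgfbr1, Tgfbr3, Inhba, Fst and Fstl1 were kept under each of them, with adjusted p up to 0.0911 (Fst), and Inhbb was called under none (adjusted p = 0.121 to 0.613). When arrays were left out in turn, adjusted p ranged from 0.0343 to 0.112 for Tgfb2 and from 0.0548 to 0.152 for Tgfb3. The clusters called then ranged from 3499 (without naive replicate 1) to 7077 (without SNT replicate 1), against 6232 with all arrays, and numbered 3745 without naive replicate 2. With the replicate number as a block (replicate block), 4700 clusters and 7 of the 9 genes were called and Tgfb3 lost its call (adjusted p = 0.119). Deviations from the group means correlated at r = -0.07, -0.15 and 0.05 between arrays of the same number, and SNT replicate 1 correlated best with naive replicate 2 (r = 0.25), so the numbers did not pair the arrays. The values hold no background level, so whether a cluster stood above background was not tested.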
